A study of Mus musculus with 16 samples.

Results

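Medullary thymic epithelial cells (mTECs) with high surface MHC class II (mTEChi) were compared with mTECs with low surface MHC class II (mTEClo) in mice without Aire. The comparison rested on 4 ATAC-seq libraries, 2 of Aire-/- mTEChi and 2 of Aire-/- mTEClo. Regions were included when their mean signal over these 4 libraries was at least 7.5, which held for 215443 of the 250313 deposited regions, or 86.1%. The fit further left out regions with a mean under 7.48 over all 16 libraries of the series, so 207592 of the included regions were tested and 7851 were not. A region with signal in the Aire-/- libraries alone could be among those left out. Each region is 500 bp long and is named by its position in the mouse genome build mm9.

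The series profiled open chromatin in 8 groups of 2 libraries, with Aire+/+, Aire-/-, Brg1+/+ and Brg1-/- mice each sorted into mTEChi and mTEClo. All mice were C57BL/6 and 4 weeks old, and 60000 cells entered each transposition reaction. The sort took live thymic stromal cells without the leukocyte marker CD45 that carried EpCAM, bound the lectin UEA and had little Ly51, and then divided them by MHC class II. The labels name neither the Aire allele nor separate animals for the replicates, and p-values accordingly cover the variation between these libraries alone, which may be technical. The Aire+/+ and Brg1+/+ libraries are the wild types of their lines, and the labels name a Brg1 genotype without naming the Cre driver.

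ATAC-seq uses the transposase Tn5, which inserts sequencing adapters into DNA that is not covered by nucleosomes, so the signal of a region rises with its accessibility. mTECs present peptides of tissue-restricted proteins to developing T cells. Aire, a nuclear regulator found mainly in mTEChi, is needed for the transcription of many of those proteins, and mice that lack it develop autoimmune disease. mTEClo are a mixed fraction that holds precursors of mTEChi as well as other mature mTEC types. In such sorted populations, a smaller share of cells with an open region and a lower accessibility per cell cannot be told apart.

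The Aire-/- libraries separated by sort. Across the tested regions, log2 signal correlated with r = 0.76 between the mTEChi libraries and r = 0.80 between the mTEClo libraries, and with r between 0.39 and 0.47 across sorts. Regions are not independent replicates, so these values describe the libraries only. The median signal of the tested regions was 21.3 and 18.2 in mTEChi replicates 1 and 2 and 15.6 and 15.4 in mTEClo replicates 1 and 2, while the 99th percentile was about the same in all 4, at 230.7, 230.2, 229.8 and 230.1. Read depth is not recorded with the values. A listed 0 occurred in mTEClo replicate 2 alone among these 4 libraries, at 1163 tested regions. Across the tested regions, the median absolute difference between replicates was 0.54 in mTEChi and 0.46 in mTEClo on the log2 scale, and that between the sorts was 0.80.

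Without Aire, 16083 regions (7.75%) were more accessible in mTEChi and 9449 (4.55%) were more accessible in mTEClo, and 182060 (87.7%) did not pass the test. Over all 225281 regions tested in the series, the same contrast called 7.15% higher in mTEChi and 4.22% higher in mTEClo. Calls were made with limma on log2(signal + 1) at a Benjamini-Hochberg adjusted p under 0.05, and fold changes are on that scale, which understates the change of regions with low signal. The regions higher in mTEChi had a median log2 fold change of 2.52 (quartiles 2.08 and 2.99, median SE 0.65), with a median mean signal of 57.0 in mTEChi and 9.01 in mTEClo. Those higher in mTEClo had a median of -2.34 (quartiles -2.74 and -1.87, median SE 0.61), with 10.5 in mTEChi and 58.8 in mTEClo. Both libraries of the higher sort lay above both of the other sort at 16080 of the 16083 and at all 9449 regions. Calls were made on these same libraries, so this separation largely follows from the calling and adds no support to it. How many uncalled regions separate in this way was not counted. The median log2 fold change over all tested regions of the set was 0.13.

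The size of the call sets rested on single libraries and on the scaling between libraries. Leaving out an Aire-/- library took the mTEChi-higher count to 5154 (mTEChi replicate 1), 6398 (mTEChi replicate 2), 8293 (mTEClo replicate 1) or 6375 (mTEClo replicate 2), and the mTEClo-higher count to 4242, 5672, 3833 and 2645 in the same order. mTEChi-higher regions made up 62.99% of the calls as deposited, 51.5% after quantile normalization, 53.5% after cyclic loess and 43.3% after re-centring on the median, while the median log2 fold change became -0.04, 0.018 and -0.16.

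**Figure D1:**
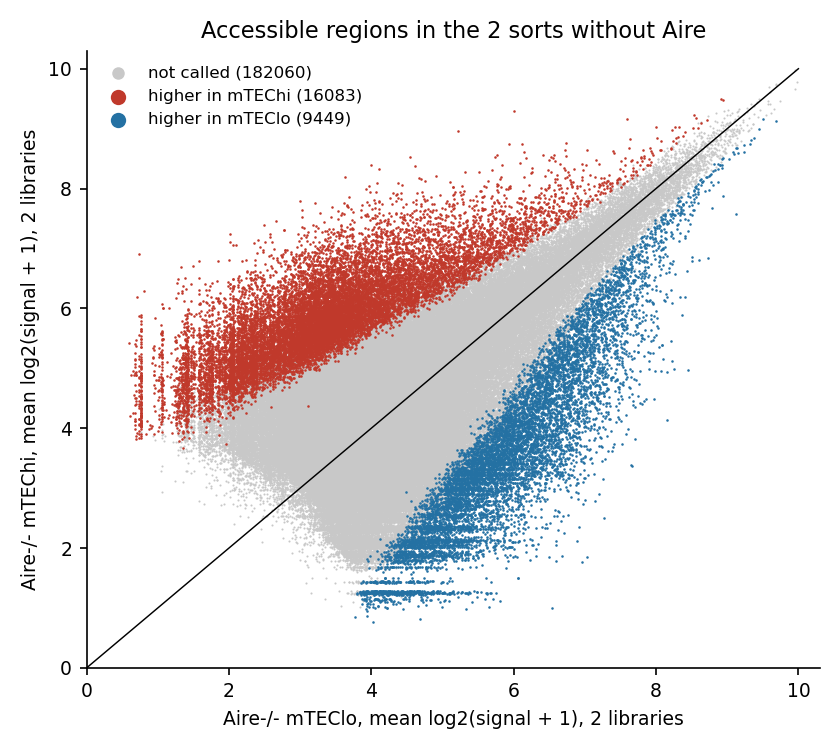
Mean log2(signal + 1) of the 2 Aire-/- mTEClo libraries (x axis) and the 2 Aire-/- mTEChi libraries (y axis) for each of the 207592 tested regions, with the diagonal of equal signal. The 16083 regions called higher in mTEChi (red) and the 9449 called higher in mTEClo (blue) lie on either side of the 182060 regions that were not called (grey), and the 2 arms narrow towards the highest signals.

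Large differences were common in both directions. A log2 fold change over 3 was reached by 3962 mTEChi-higher regions and 1331 mTEClo-higher regions, and a value over 4 by 421 and 84. The lower sort had a mean signal under 5, near the bottom of the scale, in 20.6% of the mTEChi-higher and 20.7% of the mTEClo-higher regions. Of the 421 mTEChi-higher regions over 4, 132 had a listed 0 in mTEClo replicate 2. With every region that holds a listed 0 left out of the fit, an alternative added after the data were seen, 15425 and 9412 regions were called.

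The MHC class II locus, which encodes the molecules by which the cells were sorted, had the highest share of mTEChi-higher regions of any 1 Mb window with at least 30 tested regions. The window ranked 107 without mTEChi replicate 2, 6 without either mTEClo library, 3 after re-centring and 4 with neither trend nor robust moderation. Class II molecules are heterodimers that present peptides to CD4 T cells, and H2-Aa, H2-Ab1 and H2-Eb1 encode their chains in mice. In RefSeq's gene table for build GRCm38.p6 these genes follow H2-Oa, H2-DMa, H2-DMb2 and H2-DMb1, whose products regulate peptide loading, the proteasome and transporter genes Psmb9, Tap1, Psmb8 and Tap2, and H2-Ob. No gene annotation of mm9 was at hand, so the locus was taken as the window from 34 to 35 Mb of chromosome 17, and no single region was assigned to a gene, promoter, exon or intron. Other defining markers of the sorts were not analysed here for the same reason.

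Promoters of class II genes carry a conserved set of boxes, among them an inverted CCAAT box called the Y box. H2-Ab1 had no entry in RefSeq's promoter table. RefSeq's gene table lists H2-Ea as a transcribed pseudogene, and whether the H2-Eb1 chain is part of the sorting marker in these mice was not tested. Short promoter stretches of the chain genes H2-Aa and H2-Eb1 are given as examples. They were read from RefSeq's promoter table for GRCm38.p6, run 5′ to 3′ along the gene's strand for the 120 bases before the start site, and have the letters CTGATTGG in capitals.
H2-Aa, chr17:34287824-34287943, minus strand: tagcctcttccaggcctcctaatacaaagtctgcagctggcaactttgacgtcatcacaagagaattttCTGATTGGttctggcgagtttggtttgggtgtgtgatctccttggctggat
H2-Eb1, chr17:34305747-34305866, plus strand: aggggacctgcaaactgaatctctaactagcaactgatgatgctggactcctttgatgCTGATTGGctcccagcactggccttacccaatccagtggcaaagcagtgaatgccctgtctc
The capitals begin 51 bases before the start site in H2-Aa and 62 bases before it in H2-Eb1. CTGATTGG, searched on both strands over 250 bases before to 50 after the start, was held by 1346 of 32851 promoters (4.1%) and by those of H2-Oa, H2-Aa, H2-Eb1 and H2-Eb2 among the 8 class II genes with an entry in that table. This search was chosen after the values were seen. Which deposited region covers these promoters was not determined, since the builds differ.

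In the class II window, 112 of 361 tested regions (31.0%) were higher in Aire-/- mTEChi and 0 were higher in mTEClo by limma. The median log2 fold change in the window was 1.27, beside 0.13 over all tested regions, and 319 of the 361 values were positive. It stayed between 0.99 and 1.15 under the 3 rescalings. In each Aire-/- library, the window's median log2 signal was set against the median over all tested regions: it stood 0.72 and 1.42 above it in mTEChi replicates 1 and 2, and 0.25 and 0.26 below it in mTEClo replicates 1 and 2. The sorts did not overlap, and mTEChi replicate 2 stood furthest out. The count of 112 fell to 62 without mTEChi replicate 1, 27 without mTEChi replicate 2, 50 without mTEClo replicate 1 and 40 without mTEClo replicate 2.

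The accessible regions of the class II window were not spread evenly. The stretch from 34.4 to 34.5 Mb held 65 of the 112 calls, which were 64.4% of its tested regions, with a median log2 fold change of 2.22, whereas 0 of the 23 regions at the start of the window were called (median 0.16). The largest differences, listed after their values were seen, included chr17:34468150-34468649, with signals of 148.3 and 300.4 in mTEChi against 11.4 and 11.97 in mTEClo (log2 fold change 4.07, SE 0.63). Nearby, chr17:34510065-34510564 held 158.7 and 222.9 against 9.54 and 12.6 (log2 fold change 3.98, SE 0.45, adjusted p = 8.31e-07). The brightest class II region, chr17:34484475-34484974, differed less on the log scale, with 478.5 and 689.2 in mTEChi against 192.0 and 190.2 in mTEClo (log2 fold change 1.58, SE 0.18). At chr17:34545955-34546454, which had the largest fold change of the window, the mTEClo signals of 1.52 and 1.21 were near the bottom of the scale, against 34.4 and 44.3 in mTEChi (log2 fold change 4.09, SE 1.09).

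**Figure D2:**
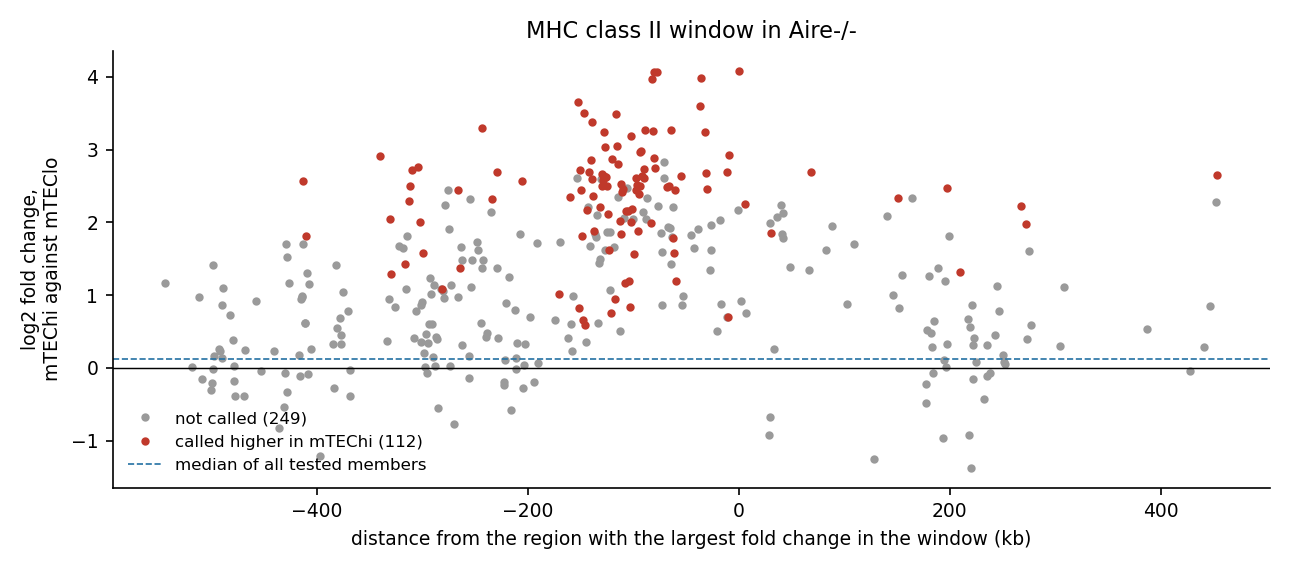
Log2 fold change of Aire-/- mTEChi against mTEClo (y axis) for the 361 tested regions of the class II window, by distance in kb from the region with the largest fold change there (x axis); the dashed line is the median of all tested regions. The 112 called regions (red) all lie above 0 and are densest between about 160 kb and 50 kb before that region.

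In the other genotypes, 55 of the 361 regions (15.2%) were higher in mTEChi in Aire+/+ mice, 64 (17.7%) in Brg1+/+ and 31 (8.59%) in Brg1-/-, beside 5.50%, 9.78% and 6.85% of the whole set of 207592 regions. The Brg1-/- share was near that of the whole set. Regions higher in mTEClo numbered 2, 2 and 3. The median log2 fold changes of the window were 0.84, 0.81 and 0.85, beside 0.14, 0.39 and 0.58. Aire+/+ mTEChi libraries stood 0.99 and 0.44 above the median over all tested regions, which overlaps the 0.72 and 1.42 of Aire-/-. No region of the window had a sort difference that differed between Aire-/- and Aire+/+ by limma, and 22 (6.09%) had an unadjusted p under 0.05, beside 5.15% over all tested regions.

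Among single regions, the smallest adjusted p in the mTEChi direction belonged to chr7:121854045-121854544, with signals of 397.7 and 358.3 in mTEChi against 53.9 and 52.9 in mTEClo (adjusted p = 3.34e-09, log2 fold change 2.80, SE 0.22). On chr8:31697926-31698425, the mTEChi libraries held 648.7 and 384.8 and the mTEClo libraries 40.2 and 32.8 (log2 fold change 3.75, SE 0.29). Similar in brightness, chr8:45541562-45542061, held 780.2 and 501.7 against 50.5 and 78.7 (log2 fold change 3.29, SE 0.28). In these 3 regions the lower mTEChi library was several times above the higher mTEClo library, and all 3 were also positive in the other 3 genotypes. Their log2 fold changes there were 1.47 to 2.42 for the first, 2.05 to 3.28 for the second and 2.62 to 3.03 for the third.

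The largest fold changes came from regions that were near the bottom of the scale in mTEClo. On chr7:134740293-134740792, signal was 66.9 and 88.6 in mTEChi against 1.30 and 0.34 in mTEClo, a log2 fold change of 5.48 (SE 0.79). On chr4:130922450-130922949 it was 126.9 and 178.2 against 1.48 and 5.58 (log2 fold change 5.23, SE 0.68), and on chr16:36097961-36098460 it was 123.0 and 85.2 against 3.37 and 0.44 (log2 fold change 5.36, SE 0.66). A higher floor was seen on chr4:8739487-8739986, with 238.4 and 202.9 against 9.63 and 5.01 (log2 fold change 4.79, SE 0.41). Of the 10 largest, 6 had a listed 0 in mTEClo replicate 2, so that their fold changes depend on the pseudocount of 1. All 10 were positive in Aire+/+, Brg1+/+ and Brg1-/-, and 7, 9 and 4 of them were called there. Over the whole set, 55.2%, 63.7% and 72.5% of regions were positive in these genotypes, and 5.50%, 9.78% and 6.85% were called higher in mTEChi.

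In the mTEClo direction, the smallest adjusted p was on chr11:7680471-7680970, with 19.3 and 14.1 in mTEChi against 239.3 and 333.8 in mTEClo (adjusted p = 1.38e-08, log2 fold change -4.02, SE 0.34). The next were chr16:93006771-93007270, with 33.2 and 22.0 against 212.4 and 207.8 (log2 fold change -2.91), and chr5:119537048-119537547, with 29.8 and 40.4 against 250.9 and 299.3 (log2 fold change -2.95). These regions kept a measurable signal in mTEChi. Larger folds were found where mTEChi was near the bottom of the scale: chr5:118789958-118790457 held 0.74 and 5.58 in mTEChi against 134.1 and 112.7 in mTEClo (log2 fold change -5.19, SE 0.58), and chr8:109274866-109275365 held 0.84 and 6.12 against 116.6 and 143.5 (log2 fold change -5.17, SE 0.61). Of the 10 largest in this direction, all 10 were negative in Aire+/+ and Brg1+/+ and 8 in Brg1-/-, and 7, 8 and 5 were called there. Over the whole set, 44.8%, 36.3% and 27.5% of regions were negative in these genotypes, and 3.95%, 4.07% and 1.63% were called higher in mTEClo.

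**Figure D3:**
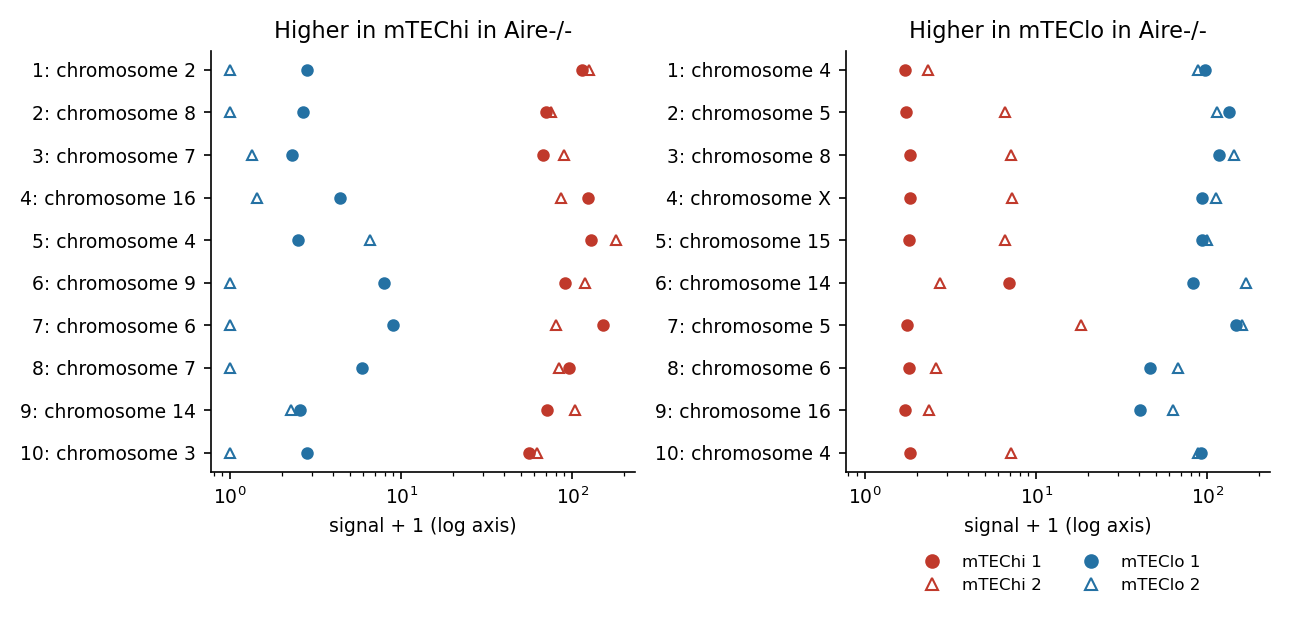
Signal + 1 on a log axis in each of the 4 Aire-/- libraries for the 10 regions with the largest fold change in each direction, named by chromosome; red symbols are mTEChi, blue symbols mTEClo, and filled circles and open triangles are replicates 1 and 2. The 20 regions were picked among called regions whose sorts do not overlap. Of the mTEChi-higher regions shown, 6 have a listed 0 (plotted at 1) in mTEClo replicate 2.

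Some of the brightest regions had nearly equal signal in both sorts. The highest mean among regions with an absolute log2 fold change under 0.25 was on chr16:42875500-42875999, with 1093.1 and 936.2 in mTEChi beside 992.5 and 992.8 in mTEClo (adjusted p = 0.935, log2 fold change 0.027). Regions that were bright in both sorts could still be called with small differences: chr17:29627271-29627770 held 501.9 and 707.9 against 394.4 and 347.1 (log2 fold change 0.69, SE 0.14), and chr11:103827601-103828100 held 510.3 and 612.5 against 757.1 and 897.9 (log2 fold change -0.56, SE 0.13). At the latter, the log2 fold changes in Aire+/+, Brg1+/+ and Brg1-/- were -0.028, -0.010 and 0.006. The region was picked on its Aire-/- values. Its sort difference did not differ from that of Aire+/+ or Brg1+/+ by limma (adjusted p = 0.959 and 0.830).

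The share of called regions rose with signal, and the SE of the fold change fell with it. In the 10 equal groups of regions by mean signal, the median SE went from 0.87 in the lowest group (mean 7.5 to 9.53) to 0.31 in the highest (62.8 to 1003.7). The share higher in mTEChi went from 0.395% in the lowest group to 17.1% and 17.3% in the eighth and ninth and 12.8% in the highest. The share higher in mTEClo rose from 0.848% to 10.9%. The lean towards mTEChi was thus largest at intermediate signal, where the median log2 fold change reached 0.49 in the seventh group, and the median was -0.22 in the lowest and 0.021 in the highest group. Just above the limit for inclusion, with means of 7.5 to 8, 48 of 4568 regions were called with a median log2 fold change of -0.25, and just below it, with means of 7 to 7.5, 25 of 4101 were called with a median of -0.29.

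Regions with many accessible neighbours leaned towards mTEChi. In the group of tested regions with the fewest other deposited regions within 50 kb (0 to 9), 5.85% were higher in mTEChi and 5.46% in mTEClo. In the group with the most (29 to 111), the shares were 10.5% and 3.38%, and the median log2 fold change went from -0.028 to 0.33 between these groups. Signal differed little between them, with group medians of 17.03 and 19.91. Among regions in the upper part of the signal range, at or above the median, the mTEChi-higher share went from 10.8% to 17.6% and the mTEClo-higher share from 8.87% to 5.57%. The mTEChi-higher share was larger with the most neighbours under all 29 alternatives run, and the mTEClo-higher share was larger with the fewest under 28, the exception being the fit without mTEClo replicate 2 (1.11% and 1.21%).

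**Figure D4:**
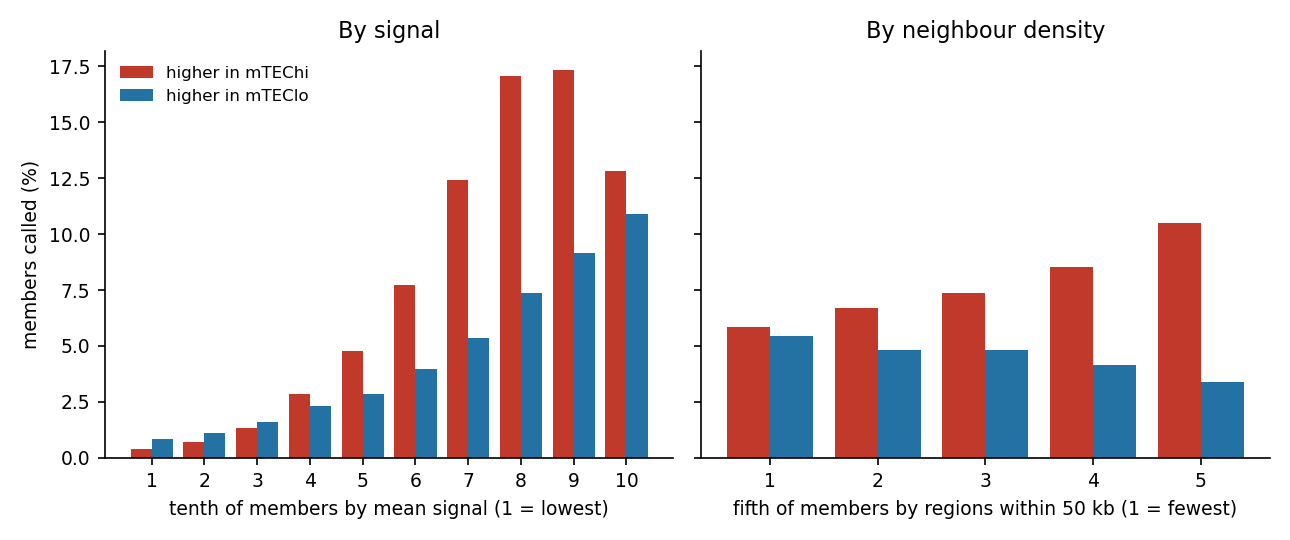
Percent of tested regions called higher in Aire-/- mTEChi (red) or mTEClo (blue), by groups of mean signal (left) and by groups of the number of deposited regions within 50 kb (right). The mTEChi-higher share peaks at 17.3% in the ninth signal group and rises from 5.85% to 10.5% with neighbour density, while the mTEClo-higher share falls from 5.46% to 3.38% with density.

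Called regions in the mTEChi direction often lay next to each other. Runs of successive tested regions called the same way, with at most 50 kb between centres, held 28.1% of the mTEChi-higher and 18.3% of the mTEClo-higher regions, and 34 runs of mTEChi-higher and 3 of mTEClo-higher regions had 5 or more members. The 2 sets differ in number and in neighbour density, so no test was made of these shares, and after re-centring the order turned, with 21.2% and 23.9%. The longest run held 15 regions over 13.0 kb, at chr11:87562026-87575004, with median signals of 54.9 and 66.0 in the mTEChi libraries against 7.75 and 6.43 in the mTEClo libraries and fold changes between 2.10 and 4.09 on the log2 scale. The sort difference was also present there in Aire+/+, Brg1+/+ and Brg1-/-, with median log2 fold changes of 1.99, 2.47 and 2.03. Of the 15 regions, 6, 11 and 8 were called, beside 5.50%, 9.78% and 6.85% of the whole set higher in mTEChi.

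Runs of 10, 8 and 7 regions followed in the class II window, and another run of 7 lay at chr19:5793768-5799075. In the run at chr17:34462301-34468649, the median signal was 76.3 and 193.3 in mTEChi against 11.4 and 6.72 in mTEClo. The mTEChi libraries differed more from each other in this run than in the run on chromosome 11. In the mTEClo direction, the longest runs held 5 regions each and were much wider: 43.5 kb at chr10:83420132-83463600, 52.01 kb at chr18:55418238-55470243 and 108.6 kb at chr2:5170993-5279583. On chromosome 10 the median signal was 9.62 and 9.96 in mTEChi against 65.7 and 70.5 in mTEClo, and the log2 fold change there had a median of -2.77 in Aire-/- and of -1.82 in Aire+/+.

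The genome was also read in 1893 windows of 1 Mb with at least 30 tested regions. The median share of regions per window was 6.82% for mTEChi-higher and 4.08% for mTEClo-higher calls. After the class II window at 31.0%, the highest mTEChi shares were 25% (9 of 36) in the window from 23 Mb of chromosome 18, 24.4% (32 of 131) from 56 Mb of chromosome 12 and 23.7% (9 of 38) from 4 Mb of chromosome 13. By the same measure the class II window ranked 13 in Aire+/+, 82 in Brg1+/+ and 496 in Brg1-/-. The highest mTEClo shares were 23.5% from 45 Mb (8 of 34) and from 76 Mb (12 of 51) of chromosome 1, and 22.6% (7 of 31) from 7 Mb of chromosome 4. The windows from 45 Mb of chromosome 1 and from 55 Mb of chromosome 18 (19 of 87) had medians of -1.05 and -1.10 on the log2 scale in Aire-/- and of -0.42 and -0.60 in Aire+/+.

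Further windows were taken at loci of epithelial and tissue-restricted genes, placed from general knowledge of the genome. In the window around Aire (chromosome 10, 77 to 78 Mb), 34 of 238 regions were higher in Aire-/- mTEChi and 4 in mTEClo (median log2 fold change 0.60). The region with the largest difference there, chr10:77858335-77858834, held 85.9 and 92.1 in mTEChi against 3.37 and 5.91 in mTEClo (log2 fold change 4.03, SE 0.65). The window's counts of 34 and 4 are shares of 14.3% and 1.68%, beside 7.75% and 4.55% of the whole set, and the median became 0.31 after re-centring. In Aire+/+ the window held 20 and 9 (median 0.34). In Brg1+/+ it held 34 and 5 (median 0.67), the same mTEChi-higher count as in Aire-/-. In Brg1-/- it held 25 and 1 (median 0.79). The whole set had medians of 0.14, 0.39 and 0.58 in these genotypes, with 5.50%, 9.78% and 6.85% higher in mTEChi. Without single Aire-/- libraries the count of 34 was 17 without mTEChi replicate 1, 13 without mTEChi replicate 2, 24 without mTEClo replicate 1 and 13 without mTEClo replicate 2. The loss of Aire was not checked in these data and is taken from the labels.

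Keratins are the intermediate filament proteins of epithelia. The type II keratin window (a 1 Mb window of chromosome 15) had 41 of 293 regions higher in mTEChi and 12 in mTEClo (median log2 fold change 0.38). Its shares of 13.99% and 4.10% stand beside 7.75% and 4.55% of the whole set. At chr15:101053415-101053914 in that window the signal was 163.9 and 168.6 in mTEChi against 1.40 and 12.3 in mTEClo (log2 fold change 4.89, SE 0.66). The type I keratin windows (the 2 windows of chromosome 11 from 99 Mb) had 48 and 13 of 401, or 11.97% and 3.24% (median 0.33). After re-centring the medians were 0.099 and 0.043. The median log2 signal of both keratin loci stood 0.60 and 0.61 above that of all tested regions in mTEChi replicate 2 but 0.011 and 0.036 above it in replicate 1. In mTEClo replicate 1 they stood 0.080 and 0.12 above it and in mTEClo replicate 2 they stood 0.044 and 0.026 below it, so the sorts overlapped at both loci. Leaving out replicate 2 took the mTEChi-higher counts from 41 to 15 and from 48 to 20, and leaving out replicate 1 took them to 24 and 26. The mTEClo-higher counts of 12 and 13 became 1 and 5 without mTEChi replicate 1, 3 and 3 without mTEClo replicate 1, and 5 and 3 without mTEClo replicate 2.

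The epidermal differentiation complex, whose genes encode proteins of the cornified skin barrier, leaned the other way by count in Aire-/- mice. In its windows (chromosome 3, 91 to 94 Mb), 6 of 169 regions (3.55%) were higher in mTEChi and 14 (8.28%) in mTEClo. These shares stand beside 7.75% and 4.55% of the whole set. The median log2 fold change was -0.016 and turned to 0.12 without mTEChi replicate 2. At chr3:93384750-93385249, signal was 33.6 and 13.5 in mTEChi against 195.4 and 156.7 in mTEClo (log2 fold change -2.98, SE 0.41). The mTEClo-higher count of 14 was 7 without mTEChi replicate 2, 7 without mTEClo replicate 1 and 4 without mTEClo replicate 2.

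The windows of the Hox clusters, arrays of genes for transcription factors that pattern the body axis, did not all lean the same way. How many of their regions lie within a cluster was not determined, so clusters A to D stand here for whole 1 Mb windows. Cluster A (chromosome 6, 52 to 53 Mb) had 4 of 145 regions (2.76%) higher in mTEChi and 13 (8.97%) in mTEClo. Cluster B (chromosome 11, 96 to 97 Mb) had 26 (14.9%) and 1 (0.571%) of 175. Of the whole set, 7.75% and 4.55% were called in these directions. Cluster C (the next window of chromosome 15 after the type II keratins) had 15 (9.68%) and 2 (1.29%) of 155. Cluster D (chromosome 2, 74 to 75 Mb) had 5 (8.5%) and 4 (6.8%) of 59. The median log2 fold changes of clusters A to D were -0.17, 0.58, 0.38 and 0.27. That of cluster D turned to -0.015 after re-centring, and that of cluster A to 0.019 and 0.20 when regions of low signal were left out. The mTEClo-higher count of cluster A was 3 without mTEChi replicate 1, 4 without mTEClo replicate 1 and 3 without mTEClo replicate 2. The mTEChi-higher count of cluster B was 17 and 9 without mTEChi replicates 1 and 2 and 12 without mTEClo replicate 2, and that of cluster C was 4, 3 and 3 without the same libraries. In cluster D, the 5 mTEChi-higher calls became 1 to 3 and the 4 mTEClo-higher calls became 1 when any of the 4 Aire-/- libraries was left out, and the median was 0.033 without mTEChi replicate 1. In cluster A, chr6:52138939-52139438 held 9.13 and 5.93 in mTEChi against 73.2 and 82.1 in mTEClo (log2 fold change -3.23, SE 0.63). Its log2 fold changes in Aire+/+, Brg1+/+ and Brg1-/- were -2.99, -3.20 and -3.50. The whole cluster A window had medians of 0.016, 0.41 and 0.71 in these genotypes, beside 0.14, 0.39 and 0.58 over all tested regions. It held 3, 13 and 4 mTEChi-higher and 8, 7 and 3 mTEClo-higher regions there, so this 1 region does not stand for the window. The olfactory receptor windows (chromosome 2, 86 to 90 Mb) hold genes of the nasal sensory neurons. They had only 18 tested regions, of which 4 (22.2%) were higher in mTEChi. That count was 0 without mTEChi replicate 1 and 2 without any other Aire-/- library.

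**Figure D5:**
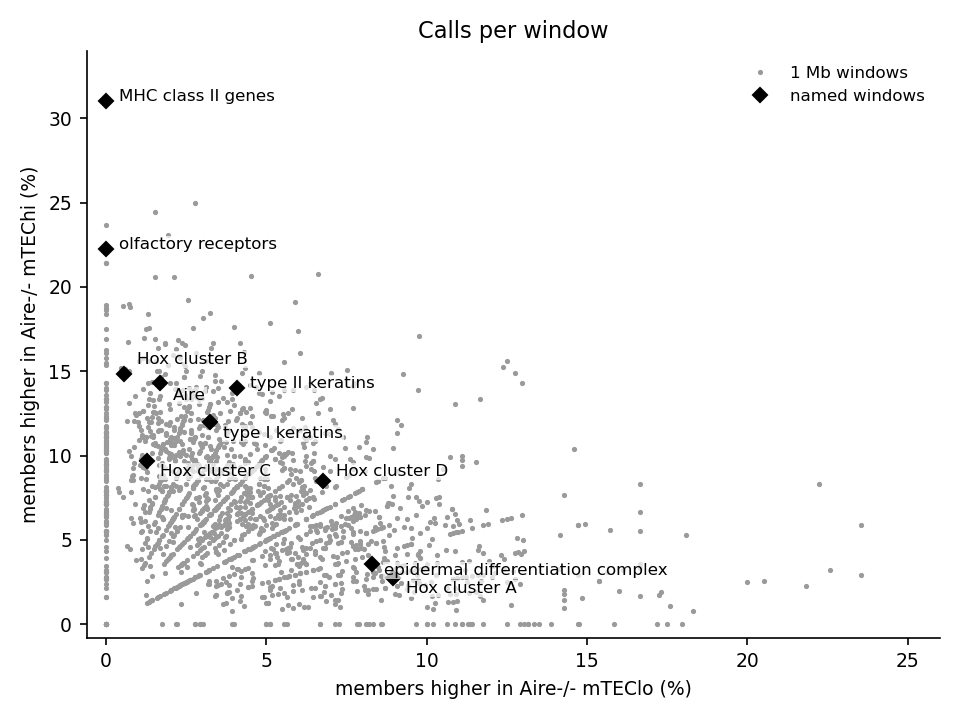
Percent of tested regions higher in Aire-/- mTEClo (x axis) and in Aire-/- mTEChi (y axis), for 1893 windows of 1 Mb with at least 30 tested regions (grey) and the windows named in the text (diamonds; the olfactory receptor windows hold 18 regions). The class II window stands highest at 31.0% against 0%. The windows of Hox cluster A and of the epidermal differentiation complex lie where mTEClo-higher calls outnumber mTEChi-higher ones.

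Chromosome X had the lowest mTEChi share of any chromosome. Of its 3328 tested regions, 3.52% were higher in mTEChi and 4.09% in mTEClo, at a median log2 value of -0.10, whereas the autosomes lay between 6.73% (chromosome 12) and 9.50% (chromosome 11) for mTEChi. X was also lowest in Aire+/+, Brg1+/+ and Brg1-/-, at 2.28%, 5.05% and 3.22%. The labels do not give the sex of the mice. Under all 28 alternatives that kept chromosome X, its mTEChi share was below that of the autosomes together.

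The sort differences found without Aire were then read in the other 3 genotypes, whose libraries are not those of the contrast. At the 16083 mTEChi-higher regions, the median log2 fold change was 1.66 in Aire+/+, 1.97 in Brg1+/+ and 1.61 in Brg1-/-, and 96.3%, 98.1% and 96.4% of the regions were positive, beside 55.2%, 63.7% and 72.5% of all tested regions. At the 9449 mTEClo-higher regions the medians were -1.56, -1.51 and -0.80, and 96.3%, 94.6% and 79.9% were negative, beside 44.8%, 36.3% and 27.5%. Because the regions were picked on their Aire-/- values, a median nearer to 0 in another genotype does not show a smaller sort difference there. Over all tested regions, the sort differences of Aire-/- correlated with those of Aire+/+, Brg1+/+ and Brg1-/- with Pearson r = 0.64, 0.66 and 0.50 and Spearman rho = 0.62, 0.64 and 0.48. These describe 207592 regions that were measured in shared libraries within each genotype.

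Calls overlapped in part. The sort differences of all genotypes were tested with a shared estimate of the spread of each region. The lists of calls are therefore not independent of each other, and their overlap was not tested. Aire+/+ shared 6570 mTEChi-higher regions with Aire-/-, which is 40.9% of the Aire-/- list and 57.6% of the Aire+/+ list, where 5.14% of all tested regions were called in Aire+/+. It shared 4135 mTEClo-higher regions (43.8% and 50.4%), with 3.65% called. Brg1+/+ shared 8751 (54.4% and 43.1%, with 9.21% called) and 4391 (46.5% and 52%, with 3.75% called), and Brg1-/- shared 5678 (35.3% and 40.0%, with 6.61% called) and 1984 (21.0% and 58.7%, with 1.5% called). Calls in opposite directions numbered 0 between Aire-/- and Aire+/+, 1 with Brg1+/+ and 4 and 13 with Brg1-/- in the 2 directions. In no other genotype were 4820 mTEChi-higher regions (30.0%) and 3665 mTEClo-higher regions (38.8%) called. Of the former, 90.8%, 94.7% and 91.9% were positive in Aire+/+, Brg1+/+ and Brg1-/-, with medians of 1.03, 1.19 and 1.09. Of the latter, 91.3%, 87.1% and 61.1% were negative, with medians of -0.95, -0.84 and -0.24.

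Whether a sort difference depends on Aire was tested as the difference between the sort differences of Aire-/- and Aire+/+. None of the 207592 regions passed at an adjusted p under 0.05 by limma; the smallest adjusted p was 0.749, and 10440 regions (5.03%) had an unadjusted p under 0.05. Over all 225281 tested regions, 0% were called higher in Aire-/-, 0.000444% lower, and 5.15% had an unadjusted p under 0.05. The test could not show that the sort differences are alike. The 95% interval had a median width of 2.08 to either side over all tested regions, and it lay within 1 of 0 on the log2 scale at 608 (2.38%) of the 25532 called regions. Leaving out Aire+/+ mTEChi replicate 1 raised the count from 0 to 72, and leaving out its replicate 2 raised it to 2.

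Against Brg1+/+, where the line and the Aire genotype cannot be told apart, 0 regions passed by limma as well, with a smallest adjusted p of 0.551 and 11830 (5.70%) at an unadjusted p under 0.05, beside 5.93% over all tested regions. The interval lay within 1 of 0 at 513 (2.01%) of the called regions. Of the 10 largest mTEChi-higher and 10 largest mTEClo-higher regions, all 20 had a larger sort difference in Aire-/- than in Aire+/+, and 9 and 7 had an unadjusted p under 0.05 for that difference. They had been picked for large values in Aire-/-, so this count is a description.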

How the data were processed

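The deposited table gives 1 signal value per region and library, normalized by the authors by a method not given in the sources used here. In addition, the submitters' processing notes list Bowtie2, MACS2 and mm9 but no version. The deposited signal is not in whole counts, reads could not be recovered from them and depth per library is unknown, so no count model and no counting interval was used. Starts in region names were taken as 0-based and are printed counted from 1. Groups came from the labels.

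limma 3.58.1 in R 4.3.3 was fitted to log2(signal + 1) with 1 mean for each of the 8 groups of all 16 libraries (8 residual degrees of freedom, trend and robust settings), after leaving out regions under the 10th percentile of the mean over all libraries (7.48; 25032 left out, 225281 kept). P-values were two-sided and Benjamini-Hochberg adjusted over all kept regions. The procedure was tested on simulated data. The included regions, windows, alternatives and naming rule were chosen with earlier results of these data known.

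Named regions were, per direction, among called regions at or above the median mean signal whose libraries did not overlap between sorts, the 10 with the largest fold change, the 5 brightest and the 5 with the smallest adjusted p, of which a subset is given. Also named were the longest runs, the called region with the largest fold change in each locus window, the 3 brightest regions with little difference and the 3 windows per direction with the highest share of calls. The replicate numbers were not used to pair the sorts in the main fit. Replicate differences of mTEChi and mTEClo correlated with r = -0.020 across regions. The labels do not say whether libraries of the same number share a source, and this single correlation cannot decide it. Regions were not linked to genes, and motifs within regions were not searched, because no mm9 sequence or annotation was used here.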

Additional observations from a re-analysis of the deposited data

Results flagged for a closer look

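At chr2:77823875-77824374, the sort difference itself differed between Aire-/- and Aire+/+ by limma (difference of log2 fold changes -5.43, SE 0.78, 95% interval -7.02 to -3.84, adjusted p = 0.0150). Signal was 18.1 and 24.5 in Aire+/+ mTEChi against 1.21 and a listed 0 in Aire+/+ mTEClo, and 4.30 and 2.12 in Aire-/- mTEChi against 8.31 and 13.9 in Aire-/- mTEClo. The mean over the 4 Aire-/- libraries was 7.16, under the limit of 7.5, so the region is not among the 215443. In the 8 libraries of the Brg1 line the signal was 74.4 to 331.0. Of 27 alternatives, 17 kept the call and 10 lost it, among them a pseudocount of 5 (adjusted p = 0.833), quantile normalization (0.103), the 8 Aire libraries alone (0.87) and variances moderated without trend and robust settings (0.92). Over all alternatives the adjusted p ran from 0.0054 to 0.92.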

How the results depend on the processing

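Among the 62 named called regions, 1699 of 1786 values under 29 alternatives stayed on the same side of the threshold, 87 lost it and 0 reversed. A member mean of at least 15 and a minimum absolute log2 fold change of 1 could not change these values. All 62 stayed the same under each. Many of the regions had been picked for large or clear values in the same data, so the total is a description. The counts of mTEChi-higher, mTEClo-higher and class II window mTEChi-higher regions (16083, 9449 and 112) ranged from 5154 to 17879, 2645 to 11164 and 27 to 125 when 1 library was left out. With 1 library left in a group, that library is assumed to vary like the other groups. Re-centring on the median gave 10435 mTEChi-higher regions and 72 in the class II window. The fit of the 4 Aire-/- libraries alone gave 28162 and 14377, quality weights gave 26040 and 16006, and moderation with neither trend nor robust settings gave 10541, 5277 and 65 (class II). Leaving out 1 library took the counts of sort differences that differed from those of Aire+/+ and Brg1+/+ to between 0 and 72 and between 0 and 1. The cause was not tested for any of these changes. The median log2 fold change of -0.040 after quantile normalization and of -0.16 after re-centring had the opposite sign to the 0.13 as deposited. Medians also turned in the epidermal differentiation complex (0.12 at most without 1 library, from -0.19), Hox cluster A (0.019 with a filter at the 50th percentile, 0.20 with a mean of at least 15) and Hox cluster D (-0.015 after re-centring). Of the uncalled bright regions, chr16:42875500-42875999 turned to -0.26 after re-centring and ranged from -0.084 to 0.14 without 1 library, chr8:4166086-4166585 to -0.25 with a range of -0.19 to 0.27, and chr19:12039765-12040264 to 0.0085 after cyclic loess. A replicate block gave 16243, 9567 and 119 calls; the numbers are shared by label only, and the pairing has 2 numbers.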
